A study of Rattus norvegicus with 18 samples.

Results

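The cytochrome P450 superfamily was followed in the colonic mucosa of rats, over every probe set of the array that the platform annotation assigned to exactly 1 gene symbol starting with Cyp and a digit. Cyp51, the sterol demethylase of cholesterol synthesis, was left out by that rule. This gave 64 probe sets of 57 genes, among 31099 probe sets in all. The arrays held 73 P450 probe sets before the rule was applied, of which 7 carried several symbols and 2 named Cyp51.

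The samples were 18 Affymetrix rat arrays of scraped mucosa, with 1 proximal and 1 distal array from each of 9 male Sprague Dawley rats (rats 1 to 8 and rat 10). After 10 days on modified AIN-93G diet, every rat was given subcutaneous azoxymethane, a colon carcinogen, at 15 mg/kg, and mucosa was taken 6 h afterwards. In each region 4 cm was scraped, and 4.5 µg of RNA went onto an array. The only comparison the labels allow is distal with proximal colon, both after azoxymethane, since all rats used here were injected. The sources used here give neither the rats' ages nor which allocation group each belonged to. Rat 9 was not analysed here.

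P450 enzymes are heme proteins that insert oxygen into fats, steroids, bile acids, vitamins and foreign chemicals. Most sit in the endoplasmic reticulum and draw electrons from P450 reductase (Por), with help from cytochrome b5 (Cyb5a). The mitochondrial members draw them from ferredoxin (Fdx1). In the gut lining they are known for first-pass metabolism of drugs and dietary chemicals and for the oxidation of fatty acids and eicosanoids. Azoxymethane itself is hydroxylated by Cyp2e1, chiefly in the liver, on the way to the species that alkylates DNA.

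Levels are given as quantile-normalised log2(signal + 16), a scale on which a fold is understated where the signal is low. Levels of different probe sets are not set against each other, because probes differ in brightness. The background level of each array was the 95th percentile of 38 probe sets named for odorant, pheromone and trace amine receptors, genes taken as silent in colon. It ran from 5.80 to 6.46 over the 18 arrays. A probe set counted as above background in a region when it exceeded that level in at least 5 of its 9 arrays. A further filter on mean signal removed the dimmest 30% of probe sets (below 5.54) before testing, and 30 of the 64 P450 probe sets, naming 27 genes, were tested. The other 34 fell below the filter. The filter used the mean over both regions, so a member could pass it through the region where it was high. Of the members called below, Cyp2f4 did so, with a mean of 5.33 in proximal and 7.90 in distal colon. It is part of the distal counts below. Precision is limited by having 9 rats.

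Of the 64 P450 probe sets, 23 (21 genes) had signal above background in at least 1 region. In both regions 18 did, in proximal colon only 2 did (Cyp4f1 and Cyp8b1), and in distal colon only 3 did (Cyp2f4, Cyp17a1 and 1 of the Cyp2d4 probe sets). The other 41 were above background in neither region, and 29 of these were below the level in all 18 arrays. The 18 above background in both regions included Cyp2d2, Cyp2d4 (its other probe set), Cyp2s1, Cyp2t1, Cyp3a9, Cyp2u1, Cyp2j4 and both probe sets of Cyp2j3. The rest of the 18 were Cyp4a3, Cyp4b1, Cyp4f5, Cyp4f6, Cyp4f17, Cyp4v3 (1 of its probe sets), Cyp11a1, Cyp20a1 and Cyp27a1. Cyp4a3 was close to the level, with means of 6.29 in proximal and 6.11 in distal colon. By role, 7 of 29 probe sets of the xenobiotic hydroxylases (families 1 to 3 without Cyp2j and Cyp2u1) were above background, as were 11 of 17 of the fatty acid and eicosanoid hydroxylases. The same held for 2 of 7 in steroid hormone synthesis, 2 of 6 in cholesterol breakdown and bile acid synthesis, and 0 of 4 in vitamin D and retinoic acid metabolism. Cyp20a1, an orphan enzyme without an assigned role, was above it in all 18 arrays. The count depends on the level chosen: with the filter level of 5.54 in place of the receptor level it was 36. The share of all probe sets above background was not computed. Whether the counts of the family or its roles are high or low therefore cannot be said.

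**Figure D1:**
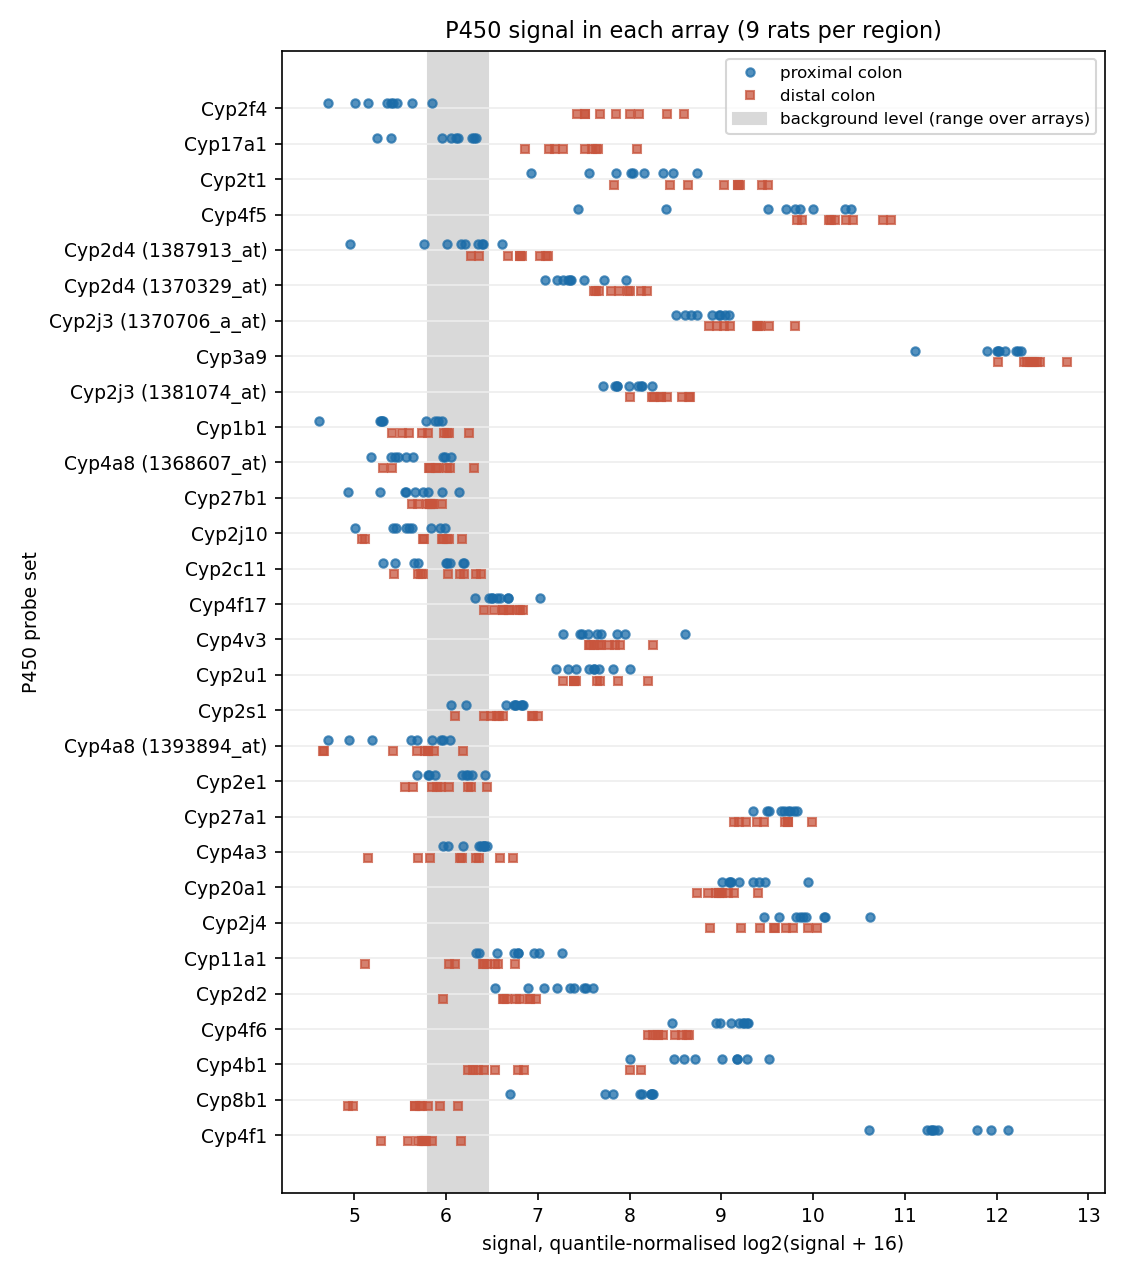
Log2 signal (x axis) of the 30 tested P450 probe sets (y axis) in each of the 9 proximal (circles) and 9 distal (squares) arrays; the grey band is the range of the background level, 5.80 to 6.46. The points of Cyp4f1, Cyp8b1, Cyp2f4 and Cyp17a1 do not overlap between the regions, and those of the other probe sets do.

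In limma's paired fit with the rat as a block, 6 of the 30 tested P450 probe sets were higher in proximal colon (20%, against a background of 14.9% of all 21729 probe sets tested) and 9, naming 7 genes, were higher in distal colon (30%, against 17.6%). Passing meant an adjusted p (Benjamini-Hochberg over all probe sets tested) below 0.05. Counted by gene, these were 6 of 27 (background 17.4%) and 7 of 27 (background 19.5%). A difference of 2-fold or more was seen for 3 probe sets in the proximal direction (background 1.74%) and 2 in the distal direction (background 0.985%). The ranges of the 9 proximal and 9 distal arrays did not overlap for 2 members higher in proximal colon (background 2.84%) and 2 higher in distal colon (background 2.38%). Cyp2f4, tested only because of its distal signal, is among the distal members of both the 2-fold and the overlap counts. The median difference, distal minus proximal, was 0.06 over the tested P450 probe sets and 0.03 over all tested, and the median size of the difference, whatever its sign, was 0.39 against 0.19. The fits without quantile normalisation set the median of all probe sets at -0.09, and with arrays centred on their medians at 0.05. In bulk tissue, fewer cells of a type and less RNA per cell cannot be told apart.

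**Figure D2:**
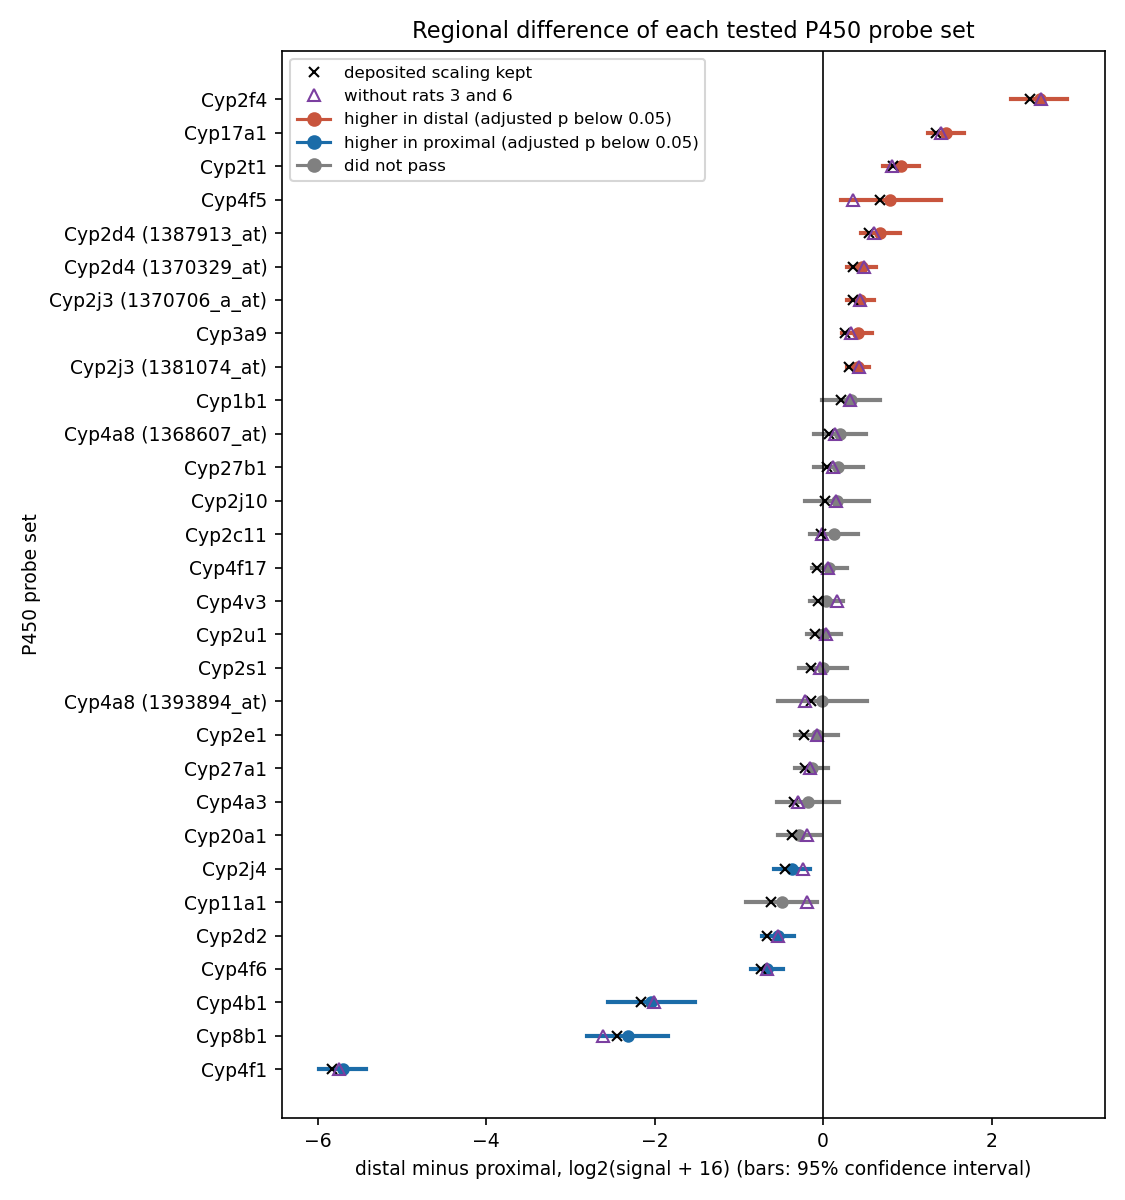
Distal minus proximal difference in log2(signal + 16) (x axis) of each tested P450 probe set (y axis), with 95% confidence intervals over 9 rats as bars; crosses are the fit with the deposited scaling and triangles the fit without rats 3 and 6. Differences ran from -5.70 for Cyp4f1 to 2.57 for Cyp2f4, and the triangle of Cyp4f5 sits at 0.35 against 0.80 with all rats.

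The upstream DNA of Cyp2f4 and Cyp8b1 is shown because each was above background in 1 region only, the former in distal and the latter in proximal colon. The windows hold the 250 bases before the gene start in RefSeq (rat build GRCr8), read 5′ to 3′ on the gene's strand, and capitals mark a match to a searched motif on either strand. Cyp2f4 lies on the plus strand, with its window at chr1:91543518-91543767, and Cyp8b1 on the minus strand, with its window at chr8:130457593-130457842.
Cyp2f4: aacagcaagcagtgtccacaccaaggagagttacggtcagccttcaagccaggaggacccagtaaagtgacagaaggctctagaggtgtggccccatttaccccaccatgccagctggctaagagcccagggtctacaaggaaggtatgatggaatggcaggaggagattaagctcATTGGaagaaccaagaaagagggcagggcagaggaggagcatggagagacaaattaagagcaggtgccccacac
Cyp8b1: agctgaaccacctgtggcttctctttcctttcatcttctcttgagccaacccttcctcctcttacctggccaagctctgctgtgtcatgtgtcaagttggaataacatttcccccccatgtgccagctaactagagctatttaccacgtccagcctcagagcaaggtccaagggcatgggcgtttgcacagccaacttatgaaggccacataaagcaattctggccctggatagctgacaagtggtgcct
The capitals in Cyp2f4 are the reverse complement of CCAAT, first base 74 before the start. The Cyp8b1 window held 0 matches to the motifs searched. Of general promoter elements, the motifs searched were the TATA box, spelled TATAAA, the CCAAT box, spelled as named, and the GC box, spelled GGGCGG. Of sites for regulators, they were the core bound by the aryl hydrocarbon receptor, which reads GCGTG, the site of GATA factors, which reads AGATAA, and that of posterior Hox and Cdx factors, which reads CAATAAA. The others were the Hnf4a site, which reads CAAAGTCCA, the E-box, which reads CACGTG, and the direct repeat of nuclear receptors, which is AGGTCA repeated with 1 base between the copies. Both strands were read. These 9 motifs do not contain one another.

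A window was at hand for 45 of the 57 genes, 18 of them above background and 27 not. TATAAA was in 13 of the 45 windows, against 12.9% of all 33469 windows of that length. All 13 belonged to genes not above background, such as Cyp1a2, Cyp2e1, Cyp2c11 and Cyp27b1, and 0 of the 18 windows of genes above background held it. The 13 include relatives of the same subfamily (Cyp2c7, Cyp2c11, Cyp2c12, Cyp2c13 and Cyp2c22, and also Cyp2a1 and Cyp2a3), so they are not independent cases. Whether TATAAA goes with a lack of signal was not tested. CCAAT was in 20 of the 45 (34% of all windows), GGGCGG in 14 (30.5%), GCGTG in 10 (25.9%), AGATAA in 6 (10.3%), CAATAAA in 2 (4.08%), CAAAGTCCA in 2 (0.338%), CACGTG in 2 (5.59%) and the direct repeat in 0 (0.0508%). A match is a run of letters in the window and not a shown binding site.

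Among the fatty acid and eicosanoid hydroxylases, 14 of 17 probe sets were tested. Of these, 4 were higher in proximal colon (28.6%, against 14.9% of all probe sets). In distal colon 3, naming 2 genes, were higher (21.4%, near the 17.6% of all probe sets). The other 7 did not pass, and the median difference was 0.02. Members of this group include the Cyp4f enzymes, which act on the far end of fatty acids and leukotrienes, the Cyp4a fatty acid hydroxylases, and the Cyp2j epoxygenases of arachidonic acid.

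Cyp4f1, a fatty acid and leukotriene hydroxylase, had the widest regional gap of the family. Its signal in proximal colon was 10.61 in the lowest array, 11.32 at the median and 12.12 in the highest, and in distal colon 5.29, 5.76 and 6.16. All 9 proximal arrays were far above background and 1 of 9 distal arrays was above it, so distal colon held little signal to measure. The mean was 11.44 ± 0.45 proximally and 5.74 ± 0.23 distally (SD, n = 9 each), a difference of -5.70 ± 0.13 (SE) with a limma adjusted p of 5.53e-11, in the same direction in 9 of 9 rats. As measured this is 52.1-fold. Taking the background level, or the probe set's own signal where higher, as the ceiling in each distal array, it was at least 39.5-fold.

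The Cyp4f genes lie close together on rat chromosome 7 and did not follow one regional pattern. Cyp4f6 is the next coding gene to Cyp4f1 in RefSeq (0 between them), while Cyp4f5 is separated from Cyp4f1 by 9 coding genes, 3 of them P450 genes. Cyp4f6 ran from 8.46 through a median of 9.19 to 9.29 in proximal colon, and from 8.20 through 8.37 to 8.65 in distal colon. Its regions overlapped through a single low proximal array (rat 7), yet every rat had the higher signal proximally. The difference was -0.66 ± 0.09 (SE; 1.58-fold, limma adjusted p = 0.000156, 9 of 9 rats).

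Cyp4f5 went the other way. It ran from 7.44 through a median of 9.80 to 10.41 in proximal colon, and from 9.82 through 10.24 to 10.85 in distal colon. The lowest 2 proximal signals were those of rat 3 (7.44) and rat 6 (8.40), and the other 7 proximal arrays lay between 9.51 and 10.41, overlapping the distal ones. The difference was 0.80 ± 0.27 (SE; 1.75-fold, limma adjusted p = 0.0393, 8 of 9 rats). Without rats 3 and 6 it was 0.35 (adjusted p = 0.065), and without the rat as a block the adjusted p was 0.0614. Leaving out any 1 of rats 1 to 6 also ended the call, with differences from 0.56 to 0.93 over the 9 fits that leave out 1 rat.

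Cyp4f17, the next coding gene to Cyp4f5, did not pass, with 6.59 ± 0.20 proximally and 6.66 ± 0.14 distally (SD, n = 9; difference 0.07, 95% interval -0.13 to 0.28). Cyp4f4, 5 coding genes from Cyp4f1 in the same stretch, was below background in all 18 arrays. So 4 Cyp4f genes had signal, 2 higher proximally, 1 higher distally and 1 that did not pass, the distal call being lost without rats 3 and 6. Cyp4f1, Cyp4f5 and Cyp4f6 all held GCGTG in their windows, and the 29 bases around 1 match in each, read on the gene's strand, show that the flanks differ. Capitals mark GCGTG or its reverse complement.
Cyp4f1 at chr7:12672609-12672637, minus strand: tctctcccacttCACGCtctgctagctcc
Cyp4f6 at chr7:12708595-12708623, minus strand: cgcgggttggggGCGTGggaggaatttca
Cyp4f5 at chr7:12194458-12194486, plus strand: gatcgcctgcctGCGTGtgtgtctattgc
The matches lie 72, 233 and 167 bases before the start of Cyp4f1, Cyp4f6 and Cyp4f5. Cyp4f6 has another match, 247 bases before its start. The start used is the outermost one of the gene for Cyp4f6, but not for Cyp4f1 and Cyp4f5.

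Cyp4b1, which hydroxylates fatty acids and activates some plant and aromatic toxins, was likewise higher in proximal colon. Its signal ran from 8.01 through a median of 9.01 to 9.52 in proximal colon, and from 6.24 through 6.54 to 8.12 in distal colon. The distal arrays of rats 3 and 7 stood at 8.12 and 8.00, and the other 7 lay between 6.24 and 6.85, and only the distal array of rat 3 reached the lowest proximal signal. Of the 9 distal arrays 7 were above background, and apart from rats 3 and 7 the distal signals were near it, which limits the fold below. The difference was -2.04 ± 0.24 (SE; 4.11-fold, limma adjusted p = 4.91e-05), with proximal colon higher in 9 of 9 rats.

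The same 2 distal arrays had more signal from smooth muscle and fibroblast markers. The mean of 10 smooth muscle markers (Myh11, Des, Acta2, Actg2, Tagln, Cnn1, Mylk, Synpo2, Smtn and Lmod1, of which 9 were above background and Lmod1 was not) was 9.88 and 9.78 in the distal samples from rats 3 and 7, while the other distal arrays lay between 6.77 and 7.92. It was 12.09 in the proximal array of rat 3, and 7.00 to 8.72 in the other proximal arrays. Their linear sum of signal + 16 ran from 2851.7 to 58056.4 in proximal and from 2507.1 to 12357.6 in distal arrays. The marker sums given below are on the same scale, so each probe set adds 16 to its sum. Without rats 3 and 7 the Cyp4b1 difference was -2.40 (adjusted p = 4.22e-06), an alternative chosen after seeing the data. The mean of 5 fibroblast markers, all above background, was 10.11 and 11.04 in these distal arrays and 6.40 to 7.85 in the other 7. The sum of signal + 16 of these markers ran from 415.3 to 16076.0 in proximal and from 483.3 to 12137.3 in distal arrays. The part of either cell type's RNA in the Cyp4b1 signal of those 2 arrays was not tested.

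**Figure D3:**
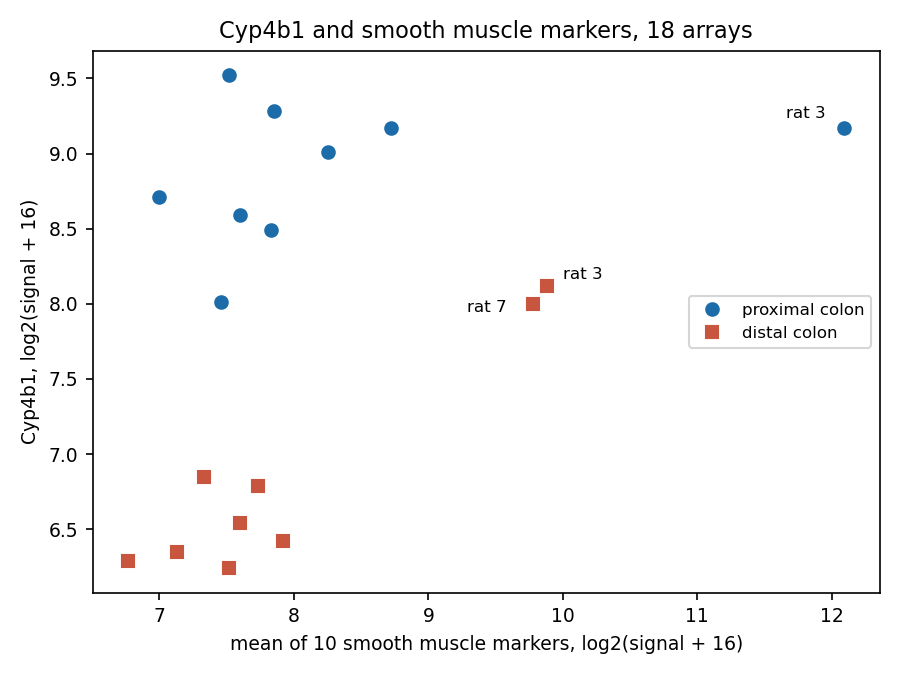
Cyp4b1 log2 signal (y axis) against the mean log2 signal of 10 smooth muscle markers (x axis) in the 9 proximal (circles) and 9 distal (squares) arrays. The distal arrays of rats 3 and 7 lie at 9.88 and 9.78 on the muscle axis and at 8.12 and 8.00 for Cyp4b1, apart from the other 7 distal arrays.

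The Cyp2j epoxygenases, neighbours on the chromosome with 0 coding genes between Cyp2j3 and Cyp2j4, were also split. Both probe sets of Cyp2j3 were higher in distal colon. The first ran from 8.51 through 8.90 to 9.08 in proximal and from 8.87 through 9.39 to 9.80 in distal colon (difference 0.44 ± 0.07 SE, limma adjusted p = 0.000578, 8 of 9 rats). The other ran from 7.71 through 7.99 to 8.24 and from 8.01 through 8.34 to 8.66 (difference 0.41 ± 0.06, limma adjusted p = 0.000296, 9 of 9 rats). The regions overlapped for both probe sets, and with the deposited scaling the adjusted p-values were 0.0738 and 0.0924.

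Cyp2j4 was higher in proximal colon, from 9.47 through 9.89 to 10.62 there and from 8.88 through 9.59 to 10.04 in distal colon. The ranges overlapped widely, and the call came from differences within rats, 8 of 9 of which were higher proximally. The difference was -0.37 ± 0.10 (SE; 1.29-fold, limma adjusted p = 0.0127), against 0.0801 without the rat as a block. Without rats 3 and 6 it was -0.24 (adjusted p = 0.0478).

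The remaining fatty acid hydroxylases above background did not pass. Cyp2u1, a long-chain fatty acid hydroxylase, was at 7.58 ± 0.24 and 7.59 ± 0.29 (SD, n = 9; difference 0.01, 95% interval -0.19 to 0.21). Cyp4v3 was at 7.72 ± 0.39 and 7.76 ± 0.22 (difference 0.04, interval -0.16 to 0.24), and its other probe set was below background in all 18 arrays. Cyp4a3, above background in 6 proximal and 5 distal arrays, was at 6.29 ± 0.19 and 6.11 ± 0.49 (difference -0.18, interval -0.55 to 0.19). A probe set naming both Cyp4a3 and Cyp4a2, outside the rule, was at 4.13 ± 0.07 proximally and 4.19 ± 0.19 distally (SD, n = 9). It was above background in 0 proximal and 0 distal arrays. Cyp4a1, Cyp2j10 and both probe sets of Cyp4a8 were above background in neither region.

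**Figure D4:**
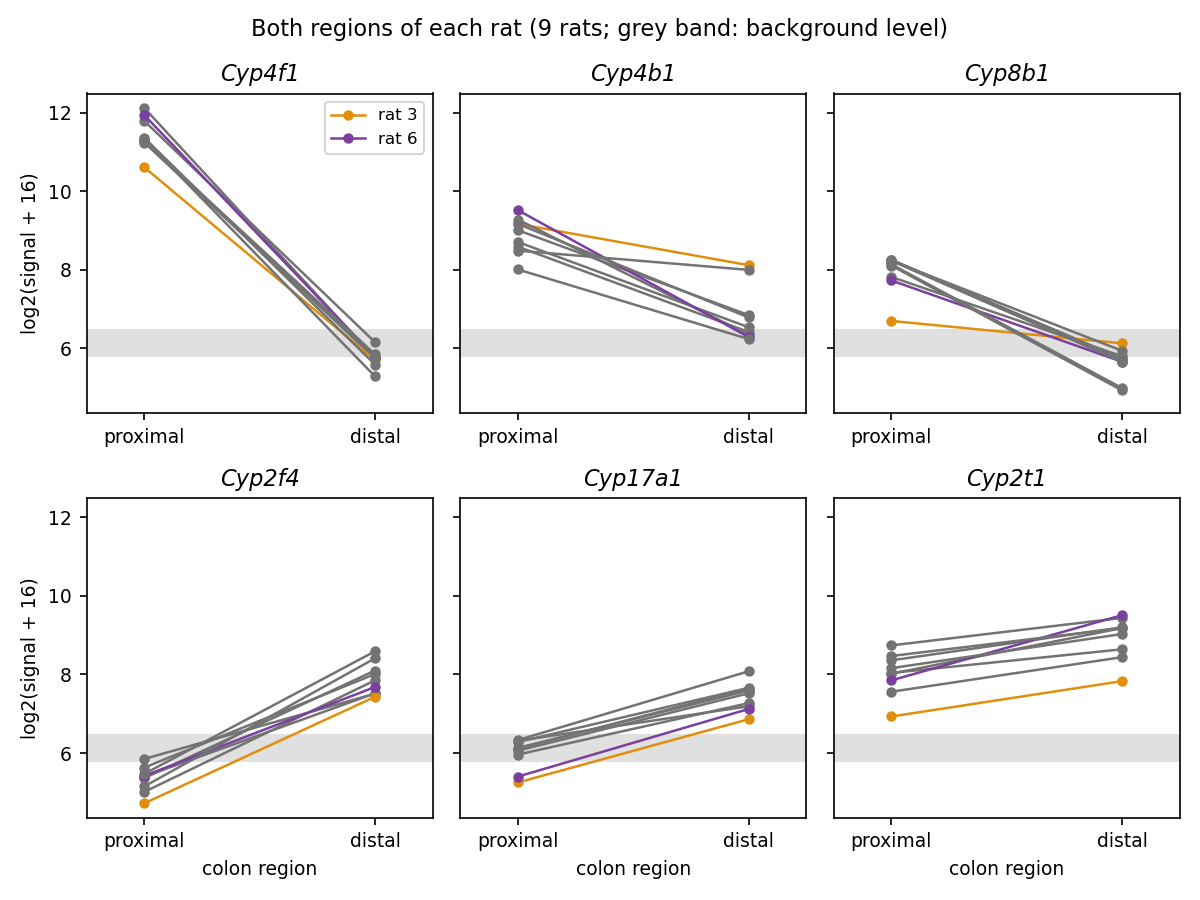
Log2 signal (y axis) of Cyp4f1, Cyp4b1, Cyp8b1, Cyp2f4, Cyp17a1 and Cyp2t1 in the proximal and distal colon (x axis), with a line joining both arrays of each of the 9 rats; rats 3 and 6 are coloured and the grey band is the background level. Every line runs down for the upper 3 genes and up for the lower 3.

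Among the xenobiotic hydroxylases, 10 of 29 probe sets were tested: 5 were higher in distal colon (50%, against 17.6% of all probe sets), 1 was higher in proximal colon (10%, against 14.9%) and 4 did not pass. The 5 distal calls named 4 genes, as both Cyp2d4 probe sets were among them. They also include Cyp2f4, which was tested only because of its distal signal, so the distal share is raised by the filter. With the deposited scaling, Cyp3a9 (limma adjusted p = 0.154) and 1 Cyp2d4 probe set (0.0765) did not pass. The median difference was 0.37. These are the enzymes of drug, carcinogen and dietary chemical metabolism.

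Cyp2f4, a naphthalene-metabolising enzyme best known from lung and nasal lining, was measured in distal colon only. Its signal ran from 7.43 through a median of 7.85 to 8.59 in distal colon. In proximal colon it ran from 4.72 through 5.40 to 5.85, with 0 of 9 arrays above background. The regions did not overlap, and the mean went from 5.33 ± 0.34 to 7.90 ± 0.41 (SD, n = 9 each). The proximal mean lay below the filter level of 5.54, so this member was tested only because of its distal signal. The difference was 2.57 ± 0.15 (SE; limma adjusted p = 2.95e-07, 9 of 9 rats), 5.92-fold as measured and at least 3.41-fold against the background level.

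Cyp2t1, the next coding gene to Cyp2f4 on chromosome 1 (0 between them) and an enzyme with little known function, was higher in distal colon too. It ran from 6.93 through a median of 8.04 to 8.74 in proximal colon, and from 7.83 through 9.18 to 9.51 in distal colon. The ranges overlapped, but every rat was higher distally: rat 3 held the lowest signal in both regions, at 6.93 and 7.83. The difference was 0.92 ± 0.10 (SE; 1.89-fold, limma adjusted p = 2.59e-05, 9 of 9 rats).

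Cyp3a9, a member of the subfamily that oxidises many drugs and steroids, was well above background in all 18 arrays. It ran from 11.11 (rat 3) through 12.03 to 12.27 in proximal colon, and from 12.01 through 12.38 to 12.77 in distal colon. The distal signals were higher in 9 of 9 rats, with a difference of 0.41 ± 0.08 (SE; 1.32-fold, limma adjusted p = 0.00244). With the deposited scaling the difference was 0.26 and the adjusted p 0.154. The other Cyp3a probe sets (Cyp3a2, Cyp3a18 and Cyp3a23-3a1) were above background in neither region.

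In the Cyp2d subfamily, whose members oxidise many amine drugs, Cyp2d2 and Cyp2d4 ran in opposite directions. Cyp2d2 ran from 6.54 through 7.35 to 7.60 in proximal colon, and from 5.97 through 6.76 to 6.98 in distal colon. Each rat was higher proximally although the ranges overlapped, with a difference of -0.53 ± 0.09 (SE; 1.45-fold, limma adjusted p = 0.000844).

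The Cyp2d4 probe set with signal in both regions ran from 7.08 through 7.35 to 7.96 in proximal and from 7.61 through 7.89 to 8.19 in distal colon (difference 0.46 ± 0.08 SE, limma adjusted p = 0.00109, 9 of 9 rats), and with the deposited scaling its adjusted p was 0.0765. The other, above background in 4 proximal and 9 distal arrays, ran from 4.95 through 6.21 to 6.61 and from 6.27 through 6.81 to 7.11 (difference 0.68 ± 0.11, limma adjusted p = 0.000448, 9 of 9 rats; at least 1.42-fold). Both probe sets of Cyp2d4 were thus higher distally. Between Cyp2d2 and Cyp2d4 lie 3 coding genes, all P450 genes of the same subfamily, and probes for such close relatives can pick up each other's RNA. How far this touches the Cyp2d values was not tested.

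Cyp2e1, the enzyme of azoxymethane and ethanol oxidation, was above background in 4 proximal and 3 distal arrays and so in neither region by the rule. Its difference of -0.07 had a 95% interval of -0.33 to 0.18. Cyp2s1, an epithelial enzyme, was above background in 8 arrays of each region, at 6.63 ± 0.29 in both (SD, n = 9; interval of the difference -0.29 to 0.29).

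Cyp1a1, the classical target of the aryl hydrocarbon receptor, stood at 4.45 ± 0.23 and 4.51 ± 0.23 and was below background in all 18 arrays. Cyp1b1, another target of that receptor, was above background in 0 proximal and 3 distal arrays, with a difference of 0.33 (interval -0.01 to 0.68, limma adjusted p = 0.13). Of the untested probe sets, Cyp1a2 (4.62 ± 0.28 and 5.57 ± 0.51) and Cyp3a18 (5.07 ± 0.47 and 5.83 ± 0.27; SD, n = 9) were higher in distal colon in 9 of 9 rats. Both were above background in 0 proximal and 2 distal arrays. In the fit without the filter on low values their limma adjusted p-values were 0.00352 and 0.00662. Probe sets of Cyp2a1, Cyp2a2, Cyp2a3, Cyp2b3, Cyp2b12, Cyp2b21, Cyp2c6v1, Cyp2c12, Cyp2c13, Cyp2c22, Cyp2c23, Cyp2d3 and Cyp2g1, many of them liver or nasal enzymes, were below background in all 18 arrays. Cyp2c7 was above it in 1 array, and Cyp2c11, a male liver enzyme in rats, in 2 proximal and 4 distal arrays. No probe set of the rule named Cyp2w1.

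In steroid hormone synthesis, 2 of 7 probe sets were tested. Cyp17a1, which makes androgen precursors in gonads and, in many species, the adrenal, was higher in distal colon. It ran from 6.86 through a median of 7.52 to 8.08 in distal colon and from 5.25 through 6.11 to 6.33 in proximal colon, where 4 of 9 arrays were above background. The regions did not overlap, and the lowest proximal signals were those of rats 3 and 6 (5.25 and 5.40). The difference was 1.46 ± 0.10 (SE; limma adjusted p = 7.54e-07, 9 of 9 rats), 2.74-fold as measured and at least 2.40-fold against the background level. Without rats 3 and 6 it was 1.40 (adjusted p = 6.45e-06).

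Cyp11a1, which cuts the cholesterol side chain as the entry to steroid synthesis, fell just outside the threshold. It ran from 6.33 through 6.79 to 7.26 in proximal colon and from 5.12 (rat 3) through 6.41 to 6.75 in distal colon. The difference was -0.49 ± 0.19 (SE; limma adjusted p = 0.0701, 7 of 9 rats), and without rats 3 and 6 it was -0.19 (adjusted p = 0.224). Cyp11b1, Cyp21a1 and the 3 probe sets of Cyp19a1 (aromatase) were below background in all 18 arrays. Of the markers of adrenal and gonad, Star, Hsd3b1 and Insl3 were below background in both regions (0 of 3 above), and Mc2r was not measured. Insl3, above background in 2 proximal and 0 distal arrays, was called higher in proximal colon (difference -0.70, limma adjusted p = 0.0251, 8 of 9 rats). The linear sum of signal + 16 of the 3 measured markers was 100.6 to 171.5 in proximal and 87.1 to 139.9 in distal arrays. The 16 added for each probe set is a sizeable part of these low sums.

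In cholesterol breakdown and bile acid synthesis, Cyp8b1 and Cyp27a1 had signal. Cyp8b1, the sterol hydroxylase that directs bile acid synthesis to cholic acid in the liver, ran from 6.70 through a median of 8.14 to 8.26 in proximal colon. In distal colon it ran from 4.93 through 5.72 to 6.13, with 1 of 9 arrays above background. The regions did not overlap, although the proximal array of rat 3 (6.70) lay well below the other 8. The difference was -2.32 ± 0.22 (SE; limma adjusted p = 1.01e-05, 9 of 9 rats), 5.00-fold as measured and at least 3.52-fold.

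Cyp27a1, the mitochondrial sterol side-chain hydroxylase of many tissues, was at 9.64 ± 0.16 proximally and 9.51 ± 0.29 distally (SD, n = 9; difference -0.13, 95% interval -0.33 to 0.06). Cyp7a1, the rate-limiting enzyme of bile acid synthesis in liver, was below background in all 18 arrays, as were Cyp7b1, Cyp39a1 and Cyp46a1. Of 5 liver markers, Apoa2, Serpina1 and Fgb were above background in neither region, Alb in distal colon only (2 proximal and 7 distal arrays) and Ttr in both. Of these markers, 3 were tested, and 1 passed in each direction. Alb was at 5.63 ± 0.55 proximally and 6.51 ± 0.60 distally (SD, n = 9; higher distally, limma adjusted p = 0.00418), and Serpina1 at 5.92 ± 0.28 and 5.42 ± 0.46 (higher proximally, adjusted p = 0.0382). The sum of signal + 16 over the 5 was 218.8 to 319.9 in proximal and 249.9 to 381.4 in distal arrays. The 16 added for each probe set is again a sizeable part of it.

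Of the vitamin D and retinoic acid enzymes, Cyp27b1, which makes the active form of vitamin D, was the tested one and did not pass (difference 0.18, interval -0.11 to 0.47). It was above background in 1 proximal and 0 distal arrays. Cyp26a1, which breaks down retinoic acid, was above background in 0 proximal and 2 distal arrays, and both probe sets of Cyp26b1 in none of 18. No probe set of the rule named Cyp24a1, the vitamin D breakdown enzyme. Cyp20a1, the orphan member, ran from 9.01 through 9.19 to 9.95 in proximal colon and from 8.73 through 8.98 to 9.40 in distal colon. It was just outside the threshold, with a difference of -0.29 ± 0.11 (SE; limma adjusted p = 0.0734, 8 of 9 rats).

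Rats differed from each other as well. Over the 18 members above background in both regions, the SD between rats was 0.16 to 0.97 in proximal colon (median 0.29, highest for Cyp4f5) and 0.14 to 0.72 in distal colon (median 0.29, highest for Cyp4b1). Rats 3 and 6 held the lowest 2 proximal signals in 5 of the 9 probe sets that were higher distally, in 1 of the 6 higher proximally (Cyp8b1) and in 1 of the 15 that did not pass. A low proximal signal itself raises distal minus proximal, so this split by call was partly fixed in advance. It is given for members only, without the share over all probe sets. The proximal array of rat 3 also had a smooth muscle mean of 12.09, against 7.00 to 8.72 in the other proximal arrays. Rats 3 and 6 were picked with earlier results of these data known. Hoxb13, a homeobox gene of the hindmost gut, was at 4.57 and 4.27 in the proximal arrays of these rats, 6.65 to 9.57 in the other proximal arrays and 11.59 to 12.05 in distal arrays. Its part in the P450 values of these arrays was not tested. All 14 absorptive colonocyte markers and all 7 goblet cell markers were above background in at least 1 region. The absorptive markers, with 8 of 14 higher proximally and 2 distally (17.4% and 19.5% over all genes), summed to 83211.3 to 96260.6 in proximal and 62540.7 to 72563.6 in distal arrays, which do not overlap. Of the goblet markers 3 of 7 were higher proximally (Muc2, Zg16 and Spink4, with differences of -0.20, -1.87 and -2.83) and 1 distally (Tff3, 0.41, adjusted p = 0.0507 with the deposited scaling). They summed to 51153.5 to 60857.3 in proximal and 45364.5 to 55534.7 in distal arrays. All marker sums in this paragraph are of signal + 16. All 5 enteroendocrine markers (Chga, Chgb, Gcg, Pyy and Scg5, the last above background in proximal colon only) were higher proximally, with a median difference of -1.81 and sums of 2846.1 to 6447.5 and 818.2 to 1811.7, which do not overlap. The part of these cell types in the P450 differences was not tested.

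The genes whose signal over the 18 arrays was most like that of Cyp4f1 were Hsd17b6 (Pearson r = 0.990), Saa3 (0.988), Casp1 (0.984), Fabp2 (0.980) and St3gal1 (0.979). All 5 were higher in proximal colon, and the arrays share region and animal. Within the 9 proximal arrays r was 0.50, 0.13, 0.46, 0.66 and 0.72 in that order, and within the 9 distal arrays 0.63, -0.24, 0.27, 0.21 and 0.60. Within a region the likeness was weaker than over both, which choosing the genes by r over both regions makes likely in advance. In distal colon Cyp4f1 was above background in 1 of 9 arrays, so the r values there rest on signal near background.

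In a list of redox partners of P450 enzymes, 8 of 9 measured genes were tested. The list is wider than the electron donors, as it also holds Pgrmc1, Pgrmc2 and Fdx2. In it 3 genes favoured proximal colon and 1, Fdx2, favoured distal colon (17.4% and 19.5% over all genes). The median was -0.13 (0.03 over all probe sets tested). Cyb5a went from 11.13 ± 0.11 proximally to 10.68 ± 0.27 distally (SD, n = 9; difference -0.45, limma adjusted p = 0.000712). Fdx1 differed by -0.22 (adjusted p = 0.0333) and Por by -0.19 (adjusted p = 0.0469). Fdx2, the ferredoxin of iron-sulfur cluster assembly, differed by 0.41 (adjusted p = 0.00115). With the deposited scaling, Cyb5a was the 1 of these 4 to pass, with an adjusted p of 0.00345. Without the rat as a block Por had 0.0521, and without rats 3 and 6 Fdx1 had 0.117. Without rats 3 and 7 Fdx1 had 0.0737 and Por 0.0694.

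Of 28 measured regulators of P450 genes, 26 were tested, of which 5 passed in the proximal and 5 in the distal direction, with a median of -0.04. Both counts are near the share of all genes called (17.4% and 19.5%), so they show nothing particular to the regulators. Higher in proximal colon were Pparg, the fat-sensing nuclear receptor (difference -1.30, limma adjusted p = 7.39e-06), Nr1h4, the bile acid receptor (-0.96, 9.92e-06), Nfe2l2, the oxidative stress factor (-0.44, 0.000181), Nr5a2 (-0.36, 0.00944) and Nr3c1, the glucocorticoid receptor (-0.33, 0.00233). Higher in distal colon were Cebpb (0.45, 0.000377), Rara (0.40, 0.00632), Hnf4a (0.36, 0.00116), Tiparp, a target of the aryl hydrocarbon receptor (0.32, 0.00956), and Rxrb (0.22, 0.0304). With the deposited scaling, 6 regulators passed proximally and 1, Cebpb, distally. Rxrb had an adjusted p of 0.0845 without rats 3 and 6. Ahr, the aryl hydrocarbon receptor (difference -0.15, adjusted p = 0.435), and Nr1i2, the pregnane receptor that drives Cyp3a genes (0.01, adjusted p = 0.933), did not pass.

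All 12 genes of heme synthesis and breakdown were tested and above background in at least 1 region. Of these, 2 passed in the proximal direction, near the 17.4% of all genes, and 4 in the distal direction (19.5% of all genes), with a median of 0.10. Blvra, biliverdin reductase (difference -0.61, limma adjusted p = 0.00475), and Alas1, the first enzyme of heme synthesis (-0.27, 0.00102), were higher proximally. Alas2, its red-cell form (0.84, 0.00254), Fech (0.40, 0.000386), Hmox1 (0.35, 0.0398) and Alad (0.20, 0.0215) were higher distally. Alas2 was above background in 4 proximal and 7 distal arrays, so in distal colon only, and its proximal signal was near background. With the deposited scaling the distal count was 1 (Alas2), and without the rat as a block Alas1 had an adjusted p of 0.195 and Alad 0.077. Alad had 0.0665 and Hmox1 0.0841 without rats 3 and 7.

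Of 11 further eicosanoid enzymes, outside the symbol rule, 10 were tested. The proximal direction held 5 calls and the distal 0 (17.4% and 19.5% over all genes), with a median of -0.39. Ptgis and Tbxas1 are themselves P450 enzymes, left out of the members because their symbols do not start with Cyp. They were Ptgis, prostacyclin synthase (difference -1.33, limma adjusted p = 0.021), Ephx1 (-1.26, 5.75e-06) and Ephx2 (-0.36, 0.00563), the epoxide hydrolases, Tbxas1, thromboxane synthase (-0.74, 0.000102), and Pla2g4a, which frees arachidonic acid (-0.65, 0.00022). Without the rat as a block Ephx2 had an adjusted p of 0.543, and without rats 3 and 7 Ptgis had 0.0503. Ptgs1 and Ptgs2, the cyclooxygenases, did not pass (-0.41, adjusted p = 0.136, and -0.13, adjusted p = 0.439).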

How the data were processed

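The authors deposited linear intensities per probe set from MAS5, per the submitters' processing notes. The sources used here name neither the version nor a scaling target. After trimming 2% at each end, array means were 211.2 to 342.4, a ratio of 1.62. From the deposited intensities, log2(signal + 16) of 31042 probe sets that are not controls was computed and quantile-normalised. Distal minus proximal was fitted with limma 3.58.1 (R 4.3.3, lmFit, eBayes with intensity trend, rat as a block, two-sided, Benjamini-Hochberg over 21729 probe sets). The fit was run on simulated data too, but these held independent noise and no rat effect. That run therefore does not check the pairing by rat. Other steps used matplotlib 3.10.9, pandas 2.3.3, numpy 2.4.6 and Python 3.11.15. The probe annotation can be old; all 64 members matched RefSeq genes of GRCr8, which changed 0 symbols, and 3 have probe set suffixes that mark possible cross-hybridisation.

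Arrays were paired by rat number, since both came from 1 animal, per the labels. Within rats, deviations from region means had correlations of 0.000945 to 0.569 (6 of 9 above 0.1, median 0.226), against a median of -0.03 between rats. No array was a copy of another, with at most 0.00643% identical values. Columns of no sample numbered 0.

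The members and lists were chosen with earlier results of these data known, and so were rats 3 and 6 for leaving out. Named members were those past an adjusted p of 0.05 and 1.5-fold, up to 2 of highest mean per role, those with an adjusted p from 0.05 to 0.10, and a fixed set. Other members were named after their values were seen, to account for all of them. Of the partner and regulator lists, those past the test were named, and Ahr, Nr1i2, Ptgs1 and Ptgs2 after their values were seen. Alternatives were other scalings, pseudocounts of 1 and 64, other filters and background levels, no block, robust hyperparameters, and leaving out rats.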

Additional observations from a re-analysis of the deposited data

Results flagged for a closer look

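Within-region groups of 9 rats were examined for 1 array apart from the others, by the gap to its nearest neighbour as a share of the range (Dixon's criterion). Of 41 groups, 8 met this, and chance flags about 1 in 20 groups. In proximal colon, rat 3 was the lowest for Cyp3a9 (11.11, next 11.89) and Cyp8b1 (6.70, next 7.73) and the highest for Cyp20a1 (9.95, next 9.48). Rat 7 was the lowest for Cyp4f6 (8.46, next 8.94), and rat 10 the highest for Cyp4f17 (7.03, next 6.68). In distal colon, rat 3 was the highest for Cyp4v3 (8.26, next 7.90) and the lowest for Cyp11a1 (5.12, next 6.03), and rat 10 was the lowest for Cyp2d2 (5.97, next 6.62). Rat 3 accounted for 3 of the 5 proximal cases.

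Among the 7 P450 probe sets with several symbols, outside the rule and so not counted above, 2 had signal above background. The probe set naming Cyp2d5 and Cyp2d1 was at 10.10 ± 0.68 proximally and 9.77 ± 0.23 distally (SD, n = 9), above background in all 18 arrays, with a limma adjusted p of 0.153. The probe set naming Cyp2a2 and Cyp2a1 was at 5.67 ± 0.63 in proximal colon (2 of 9 arrays above background) and 6.31 ± 0.63 in distal colon (7 of 9), with a limma adjusted p of 0.0662.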

How the results depend on the processing

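The proximal count of 6 P450 probe sets stayed within 1.5 times under every alternative run, and leaving out 1 rat gave 6 to 7. The distal count of 9 was 8 to 9 when 1 rat was left out and 5 with the deposited scaling, which lost 1 Cyp2d4 probe set, Cyp3a9 and both Cyp2j3 probe sets. Without the replicate block the counts were 5 (Cyp2j4 lost) and 8 (Cyp4f5 lost). The rat block changed no other call among the P450 probe sets. With no filter on low values the distal count was 10 (Cyp1a2 and Cyp3a18 gained, Cyp4f5 lost), and with the lowest 50% left out it was 7. Over the 4 partner lists together, 15 genes passed proximally and 10 distally, the latter 2 with the deposited scaling; leaving out 1 rat gave 12 to 16 and 7 to 10. The count above background, 23, was 36 with the filter level, 22 with the 99th percentile and 21 when all 9 arrays of a region were required. Differences near 0 changed sign: leaving out 1 rat, Cyp2e1 ran from -0.11 to 0.01 (without rat 1) and Cyp2s1 from -0.06 to 0.09. Cyp2s1 was 0.00 with arrays centred on their medians, 0.02, 0.05, 0.03 and 0.09 without rats 1, 4, 6 and 7, and 0.03 without rats 3 and 7. Of all values of named members under the alternatives, 387 kept direction and side of the threshold, 15 no longer passed, 2 newly passed and 7 changed sign. The causes were not tested. Signal near background limits 41 of the 64 probe sets: these data do not show that the genes are silent.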
